A study of Mus musculus with 4 samples.

Results

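Mature B cells of the bone marrow carry IgM and IgD together on their surface, recirculate through blood and lymphoid organs, and respond to antigen through the B cell receptor. They take up antigen and present its peptides on MHC class II, and they answer type I interferon through interferon-stimulated genes. Histone deacetylases (HDACs) remove acetyl groups from histones and other proteins, and purinostat mesylate (PM) is an inhibitor of class I and class IIb HDACs. The comparison here asks how the transcripts of these non-malignant B cells differed between mice given PM and mice given vehicle.

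The marrow came from 5TMM mice, that is C57BL/KawRij mice that had received 5TGM1-luc myeloma cells into a vein at 6 weeks of age. Treatment began 3 weeks later. There were 2 mice on vehicle and 2 mice given PM at 10 mg/kg, all sampled at 24 h, each as 1 droplet-based single-cell library after red cell lysis. All 4 mice thus carried myeloma cells, and the mouse is the replicate. The libraries held 86052982 and 69828595 unique molecular identifiers (UMIs, 1 per captured transcript) in vehicle 1 and 2, and 109447030 and 74388936 in PM 1 and 2.

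Mature Ighd-positive B cells were chosen by raw UMI counts of gate genes, and earlier results of these data were known when the gate was set. A cell was a member if it had at least 1 Cd79a UMI and at least 2 Ighd UMIs. It had no UMI of Rag1, Vpreb1, Igll1 or Cd3e, and at most 1 UMI of Mmp8, Mmp9 and Cxcr2 together. Cells below 300 genes or above 20% mitochondrial UMIs had been dropped, and of the 39743 cells kept 1785 were members, or 4.49%. They numbered 115 and 301 in the vehicle libraries and 915 and 454 in the PM libraries. Their median depth was 2452, 2569, 2136 and 2517 UMIs in vehicle 1, vehicle 2, PM 1 and PM 2. At the edge of the gate, 357 members (20%) had exactly 2 Ighd UMIs, and 367 cells that met every other condition had 1 Ighd UMI and stayed outside. No member barcode occurred as a member in more than 1 library.

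The label of mature B cells was checked on markers that the gate did not use. Bank1, a scaffold of B cell receptor signaling, had a UMI in 79.4% to 85.5% of members per library. Fcer2a, the low-affinity IgE receptor CD23 of mature B cells, was found in 53.9% to 64.8%. Cr2, a complement receptor gene, was found in fewer members, at 35.7% and 36.5% in vehicle 1 and 2 and 47.2% and 50.7% in PM 1 and 2. In T cells of the same libraries (Cd3e-positive, Cd79a-negative), which were deeper at medians of 3333 to 3976.5 UMIs, Bank1 was found in at most 1.39% and Fcer2a in at most 0.463%. Summed over the members of a library, Fcer2a lay at 394 to 523 counts per 1000000 (CPM) and in all other kept cells at 0.562 to 4.95 CPM. In the cells with only 1 Ighd UMI, Fcer2a lay between 161 and 256 CPM. Of the genes of antibody-secreting cells, Prdm1 lay at no more than 6.51 CPM, Sdc1 at no more than 11.6 CPM and Jchain at 19.7 to 57.2 CPM, whereas Mzb1 and Xbp1 were detected at 188 to 246 and 69.3 to 88.0 CPM. The label does not describe every member. A cluster of 328 members (18.4%), described below, had raised transitional markers, and another of 55 members was led by Elane, Car1 and Pclaf.

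Most members used kappa light chains. The share with more lambda than kappa constant UMIs was 16.8%, 12.7%, 7.79% and 11.7% in vehicle 1, vehicle 2, PM 1 and PM 2. Vehicle 2 and PM 2 were close, at 38 of 299 and 51 of 436 assigned members. T cells held a mean of 0.667, 0.521, 2.82 and 0.457 Igkc UMIs in the same order, so Igkc of other cells was uneven. Its part in these shares was not tested. Of 1785 members, 11 had more UMIs of switched heavy chains than of Ighm. A single leading light-chain V gene could be assigned to 160 members, and these used 50 different genes, with Iglv1 leading in 16 cells. Among 110 members with an assigned heavy-chain V gene, 56 genes were in use and the leading one, Ighv1-81, was found in 5 cells.

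The members were a larger share of the marrow in both PM mice than in either vehicle mouse. They made up 1.24% (95% Wilson interval 1.04 to 1.49) of kept cells in vehicle 1 and 3.85% (3.44 to 4.30) in vehicle 2. In PM 1 they made up 6.83% (6.42 to 7.27) and in PM 2 4.90% (4.48 to 5.36), where these intervals cover counting error only. The group means were 2.54% ± 1.84 (SD, n = 2) for vehicle and 5.87% ± 1.37 (SD, n = 2) for PM. The difference of 3.32 percentage points had an exact two-sided permutation p of 0.333, which is the smallest p that 2 against 2 libraries allow. Every vehicle-PM pair pointed the same way (4 of 4). Vehicle 1 also held the most neutrophil-gated cells, 77.3% of kept cells against 59.5%, 64.4% and 64.7% in vehicle 2, PM 1 and PM 2. Without neutrophil-gated cells in the denominator, the shares were 5.47%, 9.51%, 19.2% and 13.9%. Among Cd79a-positive cells they were 33.4%, 26.3%, 46.9% and 48.4%, and the groups did not overlap there either.

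**Figure D1:**
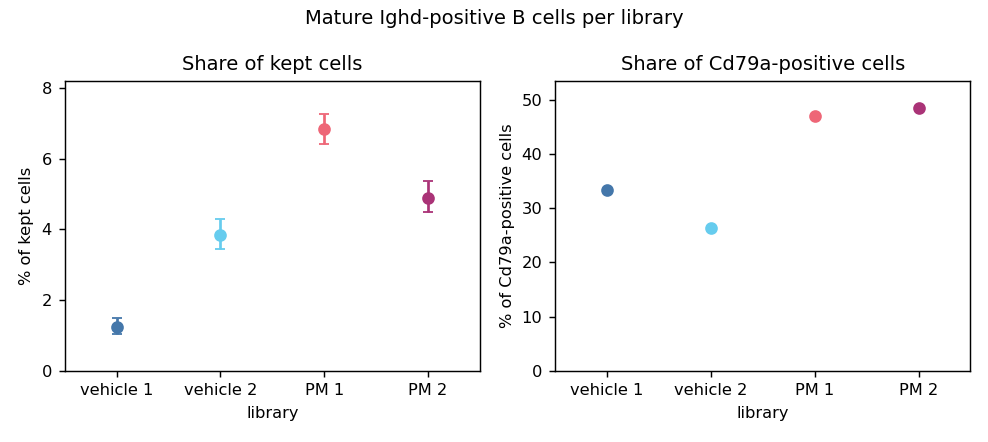
Share of mature Ighd-positive B cells in each library, as a percentage of kept cells (left, bars are 95% Wilson intervals) and of Cd79a-positive cells (right). Both PM libraries lie above both vehicle libraries, at 6.83% and 4.90% against 1.24% and 3.85% of kept cells.

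A small number of members with many UMIs stood apart from the others, and they weighed more in the PM sums. There were 85 members with more than 5000 UMIs, 3 and 12 in the vehicle libraries and 45 and 25 in the PM libraries. They held 7.67% and 11.8% of all member UMIs in vehicle 1 and 2, and 25.9% and 22% in PM 1 and 2. Of these 85 cells, 28 were called doublets, that is 2 cells under 1 barcode, against 35 of all 1785 members. In the PM libraries, the neutrophil markers (20 genes, led by S100a9) took 6.51% and 8.04% of the UMIs of these deep members but 0.552% and 0.371% of those of the other members. Genes of the cell cycle took 1.23% and 1.60%, against 0.201% and 0.214%. The 16 pan-B genes took only 0.599% and 0.707%, against 2.51% and 2.41%. The 3 deep members of vehicle 1 had no such profile, with 0.316% neutrophil and 2.55% pan-B UMIs. The main comparisons are therefore given for all members and again for the 1700 members of at most 5000 UMIs, a limit set after the data were seen.

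**Figure D2:**
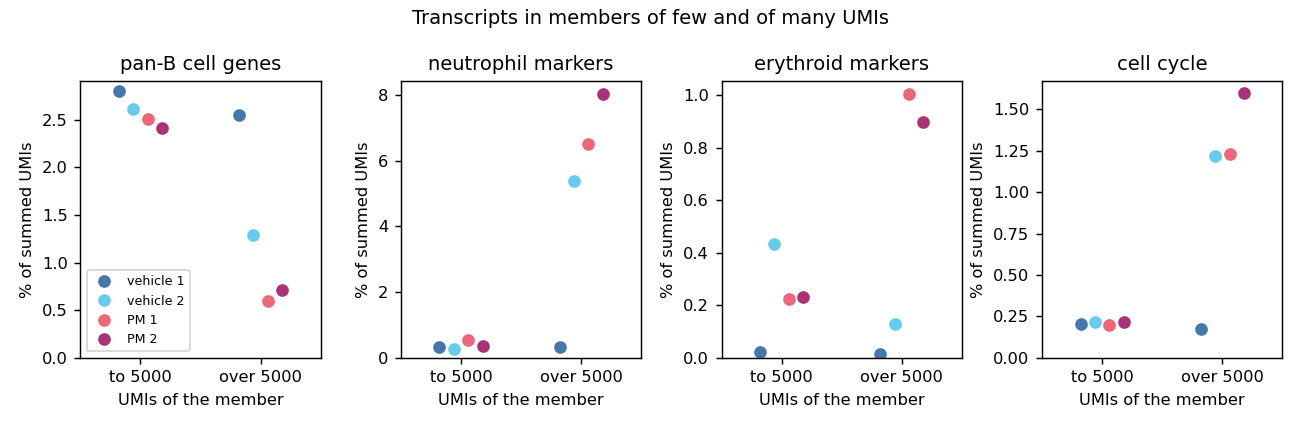
Percentage of the summed UMIs taken by pan-B genes, neutrophil markers, erythroid markers and cell cycle genes in members of at most 5000 UMIs and in members of more than 5000 UMIs, with 1 point per library. Deep members of vehicle 2, PM 1 and PM 2 lie high for neutrophil and cell cycle genes and low for pan-B genes.

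Across all members, some interferon-stimulated genes, the erythroid genes Car1 and Car2 and genes of dividing cells were higher after PM, while Ifi30, Egr3, Hvcn1, Chst3, Cxcr4 and the receptor signaling genes Blk and Malt1 were lower. Counts were summed per library and tested with edgeR's quasi-likelihood test, with p-values adjusted by the Benjamini-Hochberg method. Calls needed an adjusted p below 0.05 and a log2 fold change above 0.5 or below -0.5. Of 9043 genes tested, 99 were called higher (1.09% of those tested) and 43 were called lower (0.476%). In all 99 and all 43 the groups did not overlap, so a lack of overlap in a called gene is no separate evidence. The share of all tested genes without overlap is not given here. At an unadjusted p under 0.05 the counts were 629 and 545. DESeq2 on the same sums called 19 higher and 8 lower, of which 14 and 7 were among the edgeR calls. Leaving out vehicle 1, vehicle 2, PM 1 or PM 2 gave 166, 172, 83 and 150 genes called higher and 97, 134, 21 and 69 called lower. With 2 mice a group, these tests measure the spread between few animals. Malat1, a nuclear RNA whose share also reflects the state of the cells, was named after its values were seen. It took 15951 and 15963 CPM on vehicle and 22739 and 20360 CPM on PM, without overlap (0.43, edgeR adjusted p = 0.272), and it was called higher without the deep members (0.63, adjusted p = 0.0094). The median mitochondrial share of members was 6.23%, 5.93%, 6.11% and 5.89% in vehicle 1, vehicle 2, PM 1 and PM 2, so that the groups overlapped. The part of the Malat1 difference in the changes of gene lists was not tested.

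In members of at most 5000 UMIs, 46 of 8444 genes were called higher (0.545%) and 17 lower (0.201%). These counts also moved when 1 library was left out, and losses of single calls by library are given below for all members only. Of the genes called higher in all members, 26 were called again, which is 26.3% of the longer list and 56.5% of the shorter one. Of those called lower, 14 were called again, 32.6% of the longer list and 82.4% of the shorter one. Of the 99 genes called higher in all members, 68 passed the filter on low counts without the deep members, and 66 of these kept a positive sign. All 43 genes called lower passed it and kept a negative sign.

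**Figure D3:**
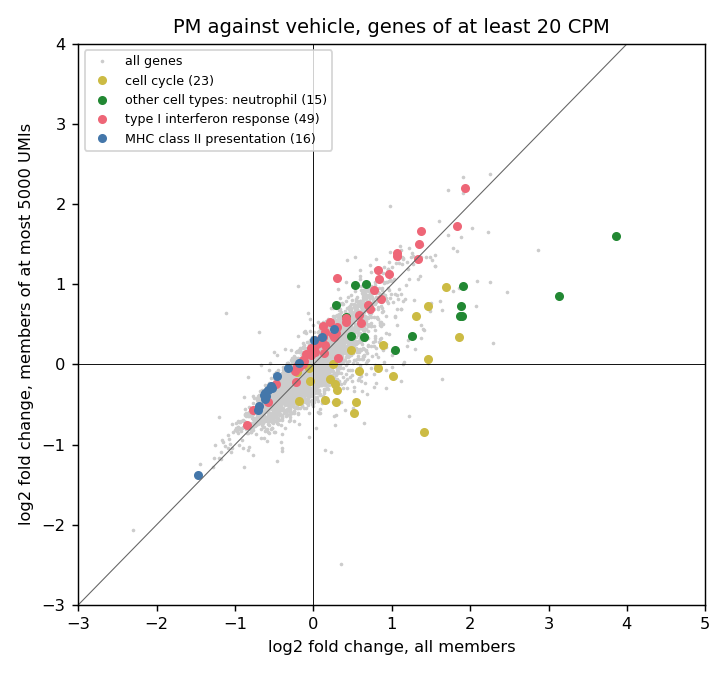
Log2 fold change between PM and vehicle for genes of at least 20 CPM, in all members (horizontal axis) and in members of at most 5000 UMIs (vertical axis), with genes of 4 lists in color, the number shown in parentheses and the diagonal drawn (6647 of 6648 genes lie within the axes). Interferon and MHC class II genes lie near the diagonal or above it, whereas cell cycle genes fall from positive values to near 0.

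A minority of the type I interferon response genes rose. The list held 75 genes, of which 63 were tested in all members, and 7 of these were called higher and none lower. Its median log2 fold change was 0.30, against 0.01 over all genes tested, and 47 of the 63 were above 0 (74.6%). Over all genes tested, 1.09% were called higher, 0.476% lower and 50.5% were above 0, and each list below stands beside these shares. In members of at most 5000 UMIs, 9 of 62 were called higher and none lower, with a median of 0.52 and 85.5% above 0. Over all genes tested in those members, 0.545% were called higher, 0.201% lower and 49.9% were above 0. The summed level of the list overlapped between the groups in all members, at 9448, 8221, 9491 and 9444 CPM in vehicle 1, vehicle 2, PM 1 and PM 2. In members of at most 5000 UMIs it was 9380, 8439, 10891 and 10423 CPM, without overlap, and in all other kept cells 4867, 4138, 5657 and 5123 CPM. In the same fit of shallower members the neutrophil markers had a higher median, 0.73, with 15 of 15 tested positive and 1 called. What part transcripts of other cells have in the interferon values was not tested.

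Irf7, the transcription factor that amplifies type I interferon production, was measured at 13.9 and 7.05 CPM in the vehicle libraries and at 38.6 and 28.4 CPM in the PM libraries. The groups did not overlap, and the log2 fold change was 1.94 ± 0.44 (SE, n = 2 per group, edgeR adjusted p = 0.0256). It rested on 4 and 6 UMIs in the vehicle libraries and 97 and 40 in the PM libraries. With the deep members left out it was 2.20 (adjusted p = 0.0116). In all members the call was lost without vehicle 2 (1.30) and without PM 1 (1.65), and the range over libraries left out was 1.30 to 2.25. Irf7 lies at chr7:141262706-141266481 on the minus strand of GRCm38.

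Ifi27l2a, Slfn5 and Cmpk2, also called, were named after their values were seen. Ifi27l2a, an interferon-inducible gene of a small mitochondrial protein, was more abundant, with 236 and 326 CPM on vehicle and 539 and 480 CPM on PM. Both PM libraries were above both vehicle libraries, and its log2 fold change was 0.82 ± 0.17 (SE, n = 2 per group, edgeR adjusted p = 0.0126). In the shallower members the values were 208 and 269 CPM against 603 and 523 CPM, and the log2 fold change was 1.18 (adjusted p = 3.15e-05).

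Slfn5, a member of the Schlafen family, had 83.4 and 76.4 CPM in the vehicle libraries and 150 and 158 CPM in the PM libraries. This was a log2 fold change of 0.97 ± 0.19 (SE, n = 2 per group, edgeR adjusted p = 0.0113), and 1.13 without the deep members. Ifi213, a p200 family gene of DNA sensing, had 34.7 and 22.3 CPM on vehicle and 57.6 and 76.6 CPM on PM. Its log2 fold change was 1.35 (edgeR adjusted p = 0.0213).

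Rsad2, which encodes the antiviral enzyme viperin, rose by a log2 fold change of 1.83 (edgeR adjusted p = 0.0255). Cmpk2, the nucleotide kinase gene next to it on chromosome 12, rose by 1.33 (adjusted p = 0.0350). Oasl1, an oligoadenylate synthetase-like gene, rose by 1.67 (adjusted p = 0.0424) from only 2 and 9 UMIs in the vehicle libraries. In all members, the calls of Rsad2 and Oasl1 were lost without vehicle 2 (1.33 and 2.14) and without PM 1 (1.66 and 1.77), that of Oasl1 also without PM 2 (1.62), and that of Ifi213 without vehicle 2 (0.93). These 3 genes and Ifi213 were also called without the deep members, at 1.73, 1.31, 1.86 and 1.5. Ifi214 and Rtp4, named after their values were seen, were called only without the deep members, at 1.39 (adjusted p = 0.0346) and 1.67 (adjusted p = 0.0491).

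Other members of the list did not pass the test. Isg15, a ubiquitin-like protein gene, had 3 and 0 UMIs in the vehicle libraries and 41 and 18 in the PM libraries, and its adjusted p was 0.165. Ifi35 had a log2 fold change of 0.83 (adjusted p = 0.192). The chemokine gene Cxcl10 had 3 UMIs in all members together, and Ccl7 had none, so neither was tested.

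Sequences upstream of the called interferon genes are shown because these genes moved together. Promoters of 250 bases before to 50 bases after the start were taken from RefSeq on GRCm38.p6, and 7 of the 9 interferon-list genes called higher in either comparison were matched. The letters GAAANNGAAA, the core repeat of the interferon-stimulated response element, were searched on both strands, the other strand reading TTTCNNTTTC. They were present in 4 of these 7 genes, in 21 of 50 matched genes of the whole interferon list that were tested (42.0%), and in 3.99% of 27025 genes with a promoter. The 150 bases from 180 to 31 bases before the start are printed for 3 of the 4 genes, 5′ to 3′ on the gene's strand, with the match in capitals. The window is chr1:173599303-173599452 (minus strand) for Ifi213, chr1:173535988-173536137 (minus strand) for Ifi214 and chr12:26456483-26456632 (minus strand) for Rsad2.
Ifi213: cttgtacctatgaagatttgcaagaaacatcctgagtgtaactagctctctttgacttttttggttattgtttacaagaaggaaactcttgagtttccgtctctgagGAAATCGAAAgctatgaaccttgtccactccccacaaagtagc
Ifi214: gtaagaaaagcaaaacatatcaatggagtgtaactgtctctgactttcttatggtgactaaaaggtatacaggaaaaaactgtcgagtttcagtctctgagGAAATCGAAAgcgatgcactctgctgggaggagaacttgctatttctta
Rsad2: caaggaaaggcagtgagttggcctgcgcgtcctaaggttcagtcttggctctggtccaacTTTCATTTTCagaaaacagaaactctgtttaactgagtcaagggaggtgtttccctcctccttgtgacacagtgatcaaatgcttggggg
The match starts 73, 79 and 120 bases before the start in Ifi213, Ifi214 and Rsad2. In Rsad2 it is read on the opposite strand. The letters were not found in these windows of Irf7, Oasl1 and Cmpk2, and a match is a description of the sequence only.

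Lists close to the interferon response had few calls. Of 10 tested guanylate-binding proteins and IRG GTPases, interferon-induced defenders against intracellular pathogens, none was called in all members (median log2 fold change 0.13). Irgm1 had a log2 fold change of 0.75 (edgeR adjusted p = 0.111). Gbp4 was called only without the deep members, at 1.24 (adjusted p = 0.0427). Among 23 MHC class I presentation genes none was called in all members, and the list's median was 0.00 with 12 positive. Without the deep members 16 were positive, the median was 0.11 and H2-Q6, named after its values were seen, was called higher (0.75, adjusted p = 0.0431). H2-K1 and B2m, the heavy and light chain of class I molecules, had log2 fold changes of 0.24 (adjusted p = 0.665) and -0.05 (adjusted p = 0.956) in all members, and of 0.42 and 0.09 without the deep ones. The peptide transporter gene Tap1 was at 188 and 162 CPM on vehicle and 165 and 194 CPM on PM.

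Some genes of MHC class II presentation fell. Of 17 tested, 3 were called lower and none higher in all members, with a median log2 fold change of -0.54. The 3 were 17.6% of those tested, against 0.476% called lower over all genes. Only 1 of the 17, Ifi30, was called without the deep members, where the median was -0.29. The 3 called genes do different work in this pathway, as a lysosomal thiol reductase (Ifi30), the transactivator of class II genes (Ciita) and a chaperone of peptide loading (H2-DMa).

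Ifi30 fell from 354 and 344 CPM in the vehicle libraries to 136 and 113 CPM in the PM libraries. This was the largest fall among the named genes other than Ighg1, with a log2 fold change of -1.47 ± 0.16 (SE, n = 2 per group, edgeR adjusted p = 6.3e-06). Leaving out any 1 library kept it between -1.62 and -1.35, and without the deep members it was -1.37 (adjusted p = 1.89e-06). Ifi30 lies at chr8:70762774-70766663 on the minus strand of GRCm38.

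Ciita had 208 and 213 CPM on vehicle and 128 and 133 CPM on PM. The log2 fold change was -0.70 (edgeR adjusted p = 0.0297), and without the deep members it was -0.52 and missed the threshold (adjusted p = 0.125). H2-DMa had a log2 fold change of -0.62 (adjusted p = 0.0451), and of -0.43 without the deep members (adjusted p = 0.206). In all members Ciita lost its call without vehicle 2 (-0.67), PM 1 (-0.65) or PM 2 (-0.72), and H2-DMa without vehicle 1 (-0.53), PM 1 (-0.77) or PM 2 (-0.49). The class II chain genes themselves, H2-Aa, H2-Ab1 and H2-Eb1, named after their values were seen, had log2 fold changes of -0.62, -0.54 and -0.58, with adjusted p of 0.0726, 0.127 and 0.0809.

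Genes of the B cell receptor pathway and of B cell identity were mostly negative, and few passed the test. Of 34 tested genes of receptor signaling, 2 were called lower and none higher, with a median log2 fold change of -0.31 in all members and -0.15 without the deep members. In all members 5.88% were called lower and 11.8% were positive, against 0.476% and 50.5% over all genes. Blk, a Src-family kinase downstream of the receptor, had 243 and 233 CPM on vehicle and 126 and 136 CPM on PM. Its log2 fold change was -0.86 (edgeR adjusted p = 0.00677), and without the deep members it was -0.61 (adjusted p = 0.0552). Malt1, the paracaspase that links the receptor to NF-kB, had 549 and 605 CPM on vehicle and 333 and 351 CPM on PM. It was called both in all members (-0.76, adjusted p = 0.0120) and without the deep ones (-0.56, adjusted p = 0.0455). When PM 1 was left out of all members neither was called, at -0.79 for Blk and -0.71 for Malt1.

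All 16 pan-B genes had a negative log2 fold change in all members, 1 of which, Blk, was called, and the median was -0.40. Over all genes tested, 50.5% were positive and 0.476% were called lower. In the 1700 shallower members none was called, 1 was positive and the median was -0.18. The pan-B genes summed to 27762 and 24549 CPM in the vehicle libraries and 20160 and 20364 CPM in the PM libraries, and without the deep members to 27951 and 26108 against 25107 and 24104 CPM. None of 30 tested B lineage transcription factors was called in either comparison. Among them Ebf1 had a log2 fold change of -0.31 (adjusted p = 0.431), Ikzf1 of 0.02 (adjusted p = 0.985) and Ikzf3 of -0.26 (adjusted p = 0.491). The plasma cell regulator Irf4 stood at -0.30 (adjusted p = 0.614).

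Of the markers of the mature state, Fcer2a, Cr2 and Bank1, none was called in all members (3 tested, median 0.02). Cr2 encodes the complement receptor CD21, which lowers the threshold of receptor signaling. Its levels were 215 and 227 CPM on vehicle and 322 and 337 CPM on PM, without overlap. The log2 fold change of 0.57 ± 0.15 (SE, n = 2 per group) missed the threshold in all members (edgeR adjusted p = 0.0615). In members of at most 5000 UMIs, Cr2 was measured at 226, 244, 401 and 420 CPM in the same order and was called higher (0.77, adjusted p = 0.00428). Fcer2a, at 507, 496, 401 and 513 CPM, and Bank1, at 962, 731, 815 and 893 CPM, overlapped between the groups. Their log2 fold changes were -0.14 (adjusted p = 0.812) and 0.02 (adjusted p = 0.977).

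Of 10 follicular B cell markers, 2 were called lower in all members (20%, against 0.476% over all genes, median -0.48), and Zfp318 was 1 of them. Among the shallower members none was called lower and Cr2 was called higher (median -0.25). Zfp318, which is needed for Ighd transcripts to be made beside Ighm, had a log2 fold change of -0.78 (edgeR adjusted p = 0.0118). Among the shallower members it missed the threshold, at -0.56 (adjusted p = 0.0509), and in all members it did so without PM 2 (-0.71). Zfp318 is not independent of the gate, which selected cells on Ighd.

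A few genes of homing and of immediate early responses fell. Cxcr4, the receptor for Cxcl12 that holds cells in the marrow, had 629 and 592 CPM on vehicle and 345 and 400 CPM on PM. Its log2 fold change was -0.71 ± 0.16 (SE, n = 2 per group, edgeR adjusted p = 0.0228), and -0.59 without the deep members (adjusted p = 0.0360). When PM 1 was left out of all members it was not called (-0.60). Cxcr4 was 1 of the 2 genes called lower among 22 tested homing genes (median -0.36 in all members, -0.25 without the deep ones), with none called higher. The 2 were 9.09% of those tested, against 0.476% over all genes. Cxcr4 lies at chr1:128588199-128592293 on the minus strand of GRCm38.

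The immediate early list had 27 tested genes, of which 4 were called lower (14.8%, against 0.476% over all genes) and none higher (median -0.62). Egr3, a transcription factor induced within minutes of antigen receptor stimulation, had 108 and 92.9 CPM in the vehicle libraries and 37.8 and 33.4 CPM in the PM libraries. The log2 fold change was -1.44 ± 0.22 (SE, n = 2 per group, edgeR adjusted p = 0.00126), and -1.24 without the deep members (adjusted p = 0.00307). Zfp36, Ier2 and Btg2 were called in all members, at -0.78, -0.71 and -0.69. Without the deep members these 3 stood at -0.48, -0.59 and -0.44 and were not called, and the median of the list was -0.43. In all members none of the 3 was called without PM 1 (-0.63, -0.60 and -0.74), nor was Btg2 without PM 2 (-0.63). In the largest cluster of members, 5 of 25 tested were called lower (median -0.52), Ier2 (-0.75, adjusted p = 0.0366) and Btg2 (-0.56, adjusted p = 0.0386) among them. Zfp36 and Ier2 also belong to a list of 18 genes that respond to tissue handling, of which 16 were tested and no others were called (median -0.20). The immediate early genes summed to 10836, 9341, 6064 and 7945 CPM in vehicle 1, vehicle 2, PM 1 and PM 2. In all other kept cells they summed to 5554, 5367, 3641 and 6003 CPM, where PM 2 was the highest. The part of handling in these values was not tested.

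Among the glucocorticoid-responsive genes, Tsc22d3, which encodes the leucine zipper protein GILZ, was called lower in all members (-0.68, edgeR adjusted p = 0.0363) together with Cxcr4 and Zfp36, of 15 tested. None was called higher, 7 were positive and the median was -0.07. Of 12 tested without the deep members Cxcr4 alone was called (median -0.33), and Tsc22d3 stood at -0.48 (adjusted p = 0.0846). In the largest cluster of members Tsc22d3 was called lower (-0.51, adjusted p = 0.0440). In all members its call was lost without vehicle 1 (-0.61) or PM 1 (-0.59). Btg2 was the only gene called of 16 tested p53 targets, and Cdkn1a, the p21 cell cycle inhibitor among them, had a log2 fold change of 0.66 (adjusted p = 0.651).

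The other large falls were in genes of varied function. Hvcn1, a proton channel associated with the B cell receptor, had 587 and 468 CPM on vehicle and 237 and 290 CPM on PM. It was called in all members (-0.99, edgeR adjusted p = 0.00181) and without the deep members (-0.79, adjusted p = 0.00428), but not in all members without PM 1 (-0.84). Chst3, a chondroitin sulfotransferase, stood at -0.95 (adjusted p = 0.00126), and its CPM in the other kept cells was 32.5-fold lower than in the members. Unc93b1, which escorts nucleic-acid-sensing Toll-like receptors to endosomes and was named after its values were seen, stood at -0.84 (adjusted p = 0.00599). The remaining falls among the 12 named by rule were Arhgap27os3 (-1.17), Zc3h12d (-1.08), Wdr3 (-1.05), D10Wsu102e (-1.04), Gucd1 (-0.97), Snap29 (-0.96), Ffar1 (-0.88) and Rasa3 (-0.86). Of these 8, Wdr3 (-1.09) and D10Wsu102e (-1.05) were called again without the deep members. The other 6 kept their sign there and missed the threshold, at -0.94 for Arhgap27os3, -0.93 for Zc3h12d, -0.83 for Gucd1, -0.78 for Snap29, -0.62 for Ffar1 and -0.64 for Rasa3. In all members each of these 8 lost its call when at least 1 library was left out: PM 1 for Arhgap27os3 (-1.25), Gucd1 (-0.76), Snap29 (-0.87), Ffar1 (-0.95) and Rasa3 (-0.70), PM 2 for Arhgap27os3 (-1.12), Zc3h12d (-0.91), Wdr3 (-0.85) and Ffar1 (-0.82), and vehicle 1 for Arhgap27os3 (-1.02), D10Wsu102e (-0.78) and Snap29 (-0.76).

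**Figure D4:**
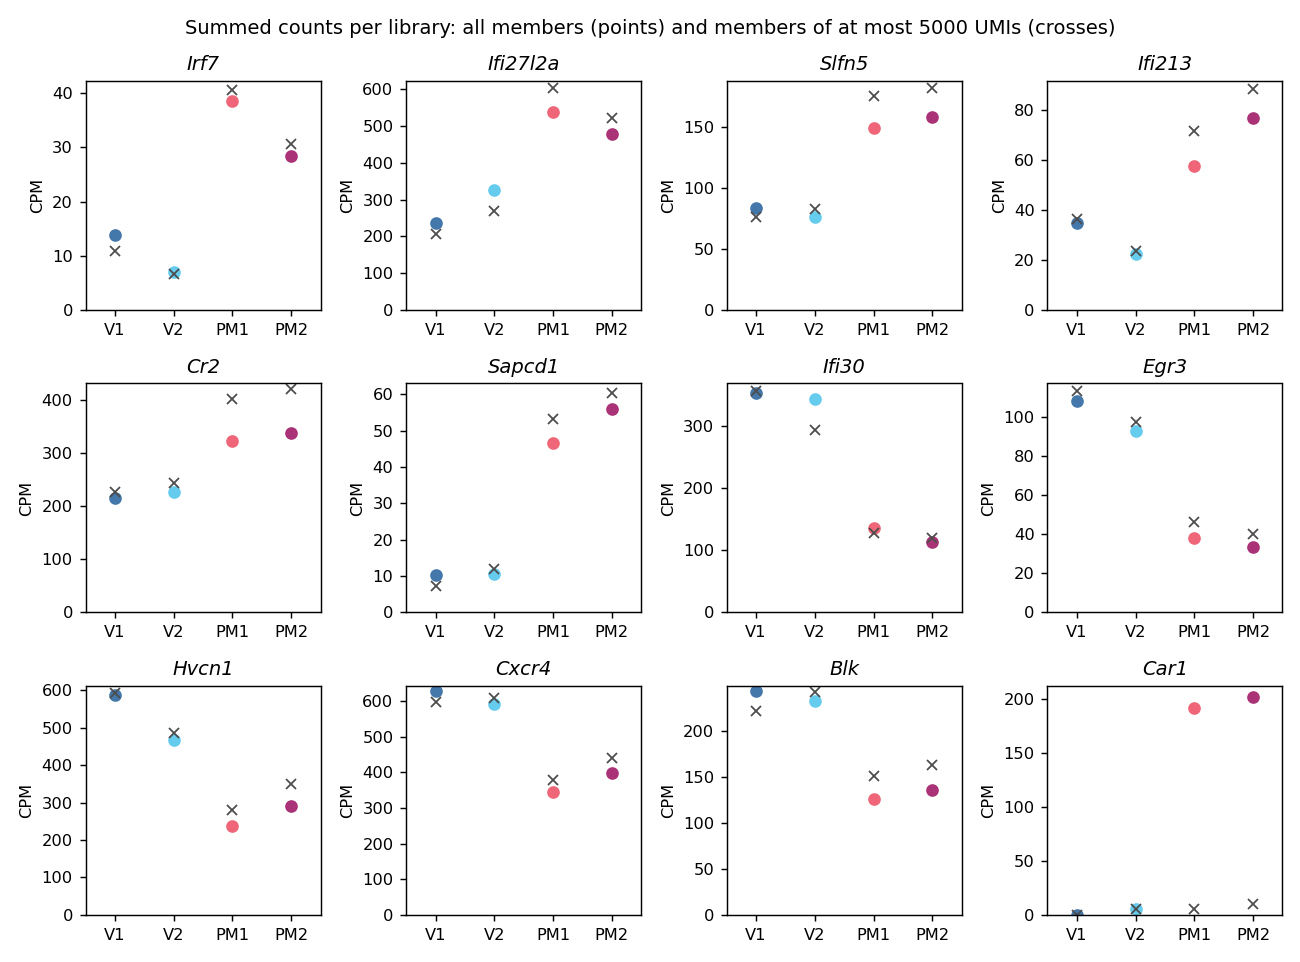
CPM in vehicle 1 (V1), vehicle 2 (V2), PM 1 and PM 2 for 12 genes, in all members (points, scaled with TMM factors) and in members of at most 5000 UMIs (crosses, scaled to the plain total). Car1 reaches 191 and 202 CPM in all members of the PM libraries but only 5.79 and 10.2 CPM without the deep members, whereas Irf7, Ifi30 and Egr3 differ between the groups either way.

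Of the 12 rises named by rule, 6 were not called again without the deep members. Car1, a carbonic anhydrase of erythroid progenitors, had 0 and 5.88 CPM on vehicle and 191 and 202 CPM on PM, a log2 fold change of 5.46 (edgeR adjusted p = 1.97e-09). Without the deep members it was at 0, 5.25, 5.79 and 10.2 CPM in vehicle 1, vehicle 2, PM 1 and PM 2 and no longer passed the filter on low counts. Rrm2, a subunit of ribonucleotide reductase, and H1f0, the linker histone of resting and differentiating cells, rose by 2.34 and 2.19 in all members and also dropped below that filter. Without vehicle 2, which left Car1 at 0 on vehicle, Rrm2 stood at 4.12. H1f0 lost its call without vehicle 2 (1.95) or PM 2 (1.73), Bora without vehicle 2 (1.62) or PM 1 (1.78), and Vcam1 without PM 1 (1.57). Birc5, the mitotic survivin gene, stood at 2.91 without vehicle 2. Among the shallower members Birc5 went from 1.86 to 0.34 (adjusted p = 0.909), Bora from 1.86 to 0.95 (adjusted p = 0.552) and Vcam1 from 2.26 to 1.03 (adjusted p = 0.478).

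Of 38 tested cell cycle genes, 7 were called higher in all members (18.4%, against 1.09% over all genes), with a median log2 fold change of 0.78. Plk1, Rrm2, Birc5 and Aurkb, all genes of dividing cells, were the largest, and Aurkb was not called without vehicle 1 (1.37), vehicle 2 (2.28) or PM 1 (1.51). Without the deep members none of 24 was called and the median was -0.09. In the largest cluster 1 of 20 was called higher (median -0.03). It was Cdk6, also called in all members and named after its values were seen. Of linker and variant histones, 3 of 14 were called higher in all members (H1f0, Hist1h1d and H2afz) and none of 11 without the deep members. Hist1h1d went from 1.83 to 1.42 (edgeR adjusted p = 0.238) and H2afz from 0.92 to 0.22 (adjusted p = 0.620). In all members Hist1h1d lost its call without vehicle 2 (1.55), and H2afz without vehicle 1 (0.64) or PM 1 (0.76).

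Markers of other cells were measured in the same sums. The 20 neutrophil markers summed to 3325 and 8719 CPM in all members of the vehicle libraries and to 20923 and 20550 CPM in those of the PM libraries. Without the deep members they summed to 3339 and 2647 CPM against 5517 and 3712 CPM. S100a9, the most abundant of them, was called higher in all members (1.88, edgeR adjusted p = 0.0422), and without the deep ones it stood at 0.73 (adjusted p = 0.123). Mpo, the myeloperoxidase gene of immature neutrophils, named after its values were seen, was called higher without the deep members (1.60, adjusted p = 0.00567), with 43.7, 36.7, 146 and 85.3 CPM. In all members the 16 tested had a median of 1.56, and in the largest cluster 14 of 14 were positive (median 0.66), with Mpo and Camp called. The 10 erythroid markers, led by Hbb-bs, summed to 198, 3985, 4263 and 3773 CPM in vehicle 1, vehicle 2, PM 1 and PM 2. Without the deep members they summed to 204, 4346, 2245 and 2304 CPM, with vehicle 2 the highest. The 15 T and NK cell markers, of which the gate set Cd3e at 0, summed to 10.1, 34.7, 111 and 49.2 CPM in the same order. Without the deep members they summed to 7.28, 3.94, 33.2 and 14.8 CPM. Both PM libraries were above both vehicle libraries in each case. Monocyte and macrophage markers, 15 genes led by Ctss, summed to 767, 973, 1325 and 843 CPM, and without the deep members to 648, 517, 772 and 713 CPM, where both PM libraries were above both vehicle libraries. Of 11 tested, Vcam1 and Ly6c2 were called higher in all members (median -0.06), and of 8 tested without the deep members Ly6c2 was (median 0.47). There were also plasma cell markers, 12 genes led by Igha, which summed to 440, 351, 485 and 399 CPM. The plasma cell sums without the deep members were 411, 366, 557 and 428 CPM. Dendritic cell markers, with Xcr1 at 0, summed to 198, 69.4, 120 and 107 CPM in vehicle 1, vehicle 2, PM 1 and PM 2. Without the deep members they summed to 61.9, 49.9, 81.1 and 80.7 CPM, where both PM libraries were above both vehicle libraries. Progenitor B cell markers summed to 60.5, 201, 201 and 261 CPM, and without the deep members to 61.9, 144, 120 and 104 CPM. Megakaryocyte and basophil markers summed to 205 CPM in PM 1 and to no more than 10.9 CPM elsewhere.

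Several calls were of transcripts far more abundant in other cells. Of the 99 genes called higher, 18 had a mean CPM in the members under one in 5 of that in the other kept cells, and of the 43 called lower 1 did. The most abundant were S100a9, Ly6c2, Pglyrp1 and Dstn. Ly6c2, a surface antigen of monocytes and of some lymphocytes, rose by 1.91 in all members (edgeR adjusted p = 0.0256) and by 2.34 without the deep members (adjusted p = 5.15e-07). Pglyrp1 and Dstn dropped to 0.18 (adjusted p = 0.845) and 0.44 (adjusted p = 0.60). The 1 such gene called lower was Ighg1, the IgG1 constant region, at 83.4 and 57.6 CPM on vehicle and 9.54 and 19.2 CPM on PM. What part transcripts of neighboring cells have in these calls was not tested.

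Some rises were called again without the deep members. Sapcd1 was measured at 10.4 and 10.6 CPM on vehicle and at 46.5 and 56.1 CPM on PM, a log2 fold change of 2.25 (edgeR adjusted p = 0.00129), and of 2.38 without the deep members (adjusted p = 0.000526). Its CPM in the members was 6.55 times that in the other kept cells. Bex3 rose by 1.88 and 1.59 and Mthfd2, a mitochondrial folate enzyme, by 1.90 and 2.13. Vamp5, a vesicle fusion protein gene, rose by 2.22 and 1.65. Car2 rose by 2.87 in all members and by 1.43 without the deep ones. Spn (CD43), a sialoprotein of B cell progenitors and B1 cells, rose by 1.72 and 1.61, and Cd9, a tetraspanin of marginal zone B cells, by 2.02 and 1.70. In all members, Spn was the 1 gene called of 9 transitional markers tested (median 0.11), and Cd9 the 1 of 9 marginal zone markers tested (median 0.31). With the deep members left out the medians were 0.04 and 0.41, and Cr2 was called besides Cd9 among the marginal zone markers. Without vehicle 2, Cd9 (1.64) and Mthfd2 (1.66) were not called, nor was Mthfd2 without PM 2 (1.80). The CPM of Cd9 in the members was only 0.133 times that in the other kept cells. In the largest cluster, 2 of 6 tested transitional markers were called higher (median 0.36), Spn (1.55) and Myb (2.83, edgeR adjusted p = 0.0193). There Myb was at 4.07 and 3.76 CPM on vehicle and at 32.9 and 21.9 CPM on PM. Myb was not called in all members (0.90, adjusted p = 0.323) or without the deep ones (0.04).

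None of 10 tested HDAC genes was called in either comparison (median 0.03 in all members and 0.10 without the deep ones, where 8 were tested). The class I genes Hdac1, Hdac2, Hdac3 and Hdac8 had log2 fold changes of -0.16, 0.08, 0.16 and -0.29, and the class IIb genes Hdac6 and Hdac10 had 0.84 and -0.05, with adjusted p of 0.617 or more. Leaving out 1 library moved Hdac8 between -0.66 and 1.58 and Hdac3 between -0.12 and 1.17. Hdac1 (-0.60 to 0.14), Hdac2 (-0.05 to 0.28) and Hdac10 (-0.20 to 0.39) also changed sign, while Hdac6 stayed at 0.67 to 0.98. Hdac7, one of the most abundant genes of the list, stood at 0.25 (edgeR adjusted p = 0.651). Hdac6 and Hdac8 were near the detection limit, at 3.47 to 16.5 CPM. None of 27 tested partners of class I HDAC complexes was called in all members or without the deep ones, and Ncor1 and Chd4 stood at -0.18 and 0.11 in all members. In the largest cluster of members, 1 of 25 was called higher, Chd3 (0.89, adjusted p = 0.0351), named after its values were seen.

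Lists with no call in all members included survival and BCL2 family genes (19 tested, median 0.02), NF-kB feedback (21 tested, median -0.31), the circadian clock (12 tested, median 0.24), the unfolded protein response (21 tested, median -0.02) and antibody-secreting cell genes (9 tested, median 0.24). None of these 5 lists had a call without the deep members either, where the medians were -0.00, -0.11, 0.44, -0.22 and 0.28 in the same order. Bcl2, which protects resting B cells from apoptosis, had 201, 199, 221 and 199 CPM in vehicle 1, vehicle 2, PM 1 and PM 2, and Mcl1, its relative, had a log2 fold change of -0.30 (edgeR adjusted p = 0.443). Tnfrsf13c, the receptor for the survival factor BAFF, stood at -0.42 (adjusted p = 0.301). Myc, at 90.3, 28.2, 39.4 and 30.5 CPM, had a vehicle 1 level above the other 3 libraries (-0.40, adjusted p = 0.810). Ltb and Nfkb1 stood at -0.44 and -0.37, Clock and Bhlhe40 at 0.21 and -0.85, Hsp90b1 and Calr at 0.08 and 0.07, and Mzb1 and Xbp1 at 0.31 and 0.24. Of germinal center genes 2 were tested, Bcl6 (0.33) and Fas (0.01), and of B1 and memory markers 1 of 9 was called, Ighg1.

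**Figure D5:**
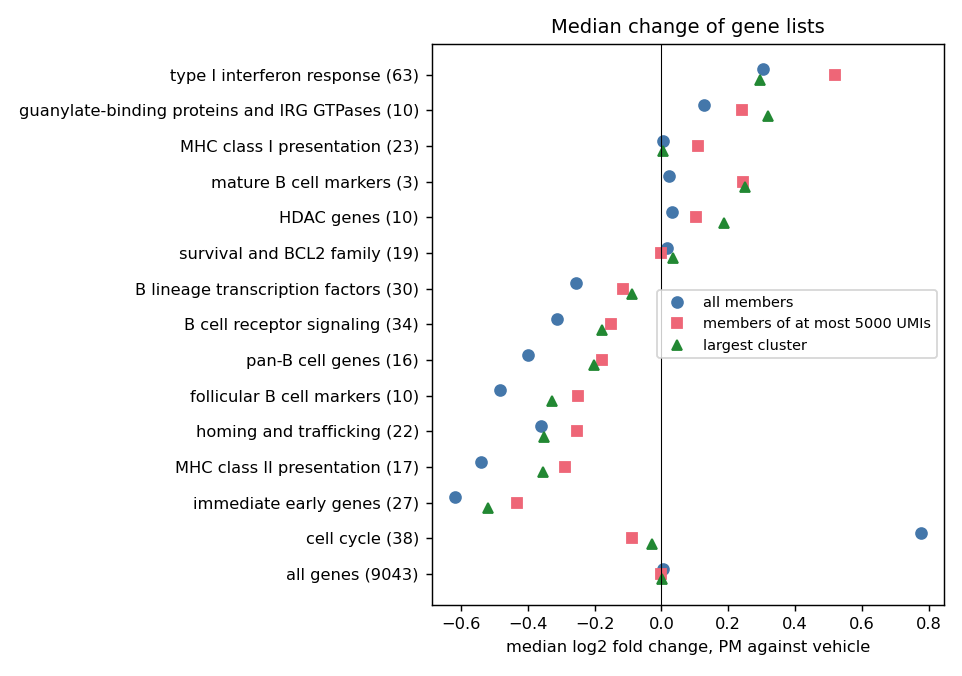
Median log2 fold change between PM and vehicle over the tested genes of 14 lists and over all genes, in all members (circles), in members of at most 5000 UMIs (squares) and in the largest cluster of members (triangles), with the number tested in all members in parentheses. The interferon list lies at 0.30, 0.52 and 0.30, and the cell cycle list falls from 0.78 to -0.09 and -0.03.

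Clustering of the members, without immunoglobulin genes and genes called between the groups, gave 5 clusters. The largest, of 1345 cells (75.4%), was led by Pxdc1, Gimap3, Gimap4, H2-Eb2 and Ccr6. In it 8 of 10 follicular markers were more than 2-fold higher than in the other members, among them Fcer2a, Cr2, Ccr7, Cxcr5, Cd55, Satb1 and Zfp318, and it was called follicular-like. The marginal zone markers Cr2, Dtx1 and Notch2 were also more than 2-fold higher there, and Cr2 is on both lists. The second, of 328 cells (18.4%), was led by Ccnd2 and Dusp10 and had raised Cd93, Cd24a, Vpreb3, Sox4, Myb, Il7r, Lef1 and Akap12, 8 of 12 transitional markers, and was called transitional-like. The third, of 55 cells, held 52 of the 85 deep members and 25 called doublets and was led by Elane, Car1, Pclaf, Top2a and Mki67. It too had raised transitional markers, namely Cd93, Sox4, Myb, Dntt, Il7r, Erg and Spn. The fourth, of 33 cells, was led by Ifit3, Ifit1, Usp18 and Oas2, and the fifth, of 24 cells, by hemoglobin genes. The last 3 were given no cell type name.

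The interferon-rich cells numbered 0 and 2 in the vehicle libraries and 21 and 10 in the PM libraries. Their leading genes include Slfn5, which differed between the groups, so these numbers are not read as a difference in cell composition. The follicular-like cluster held 87.8% and 70.8% of members in vehicle 1 and 2 and 76.3% and 73.3% in PM 1 and 2, a range in which the groups overlapped.

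Within the follicular-like cluster, which leaves out the interferon-rich cells and most deep members, 43 of 7691 genes were called higher (0.559%) and 28 lower (0.364%). Of the genes called higher in all members and without the deep ones, 18 were also called here, and of those called lower, 13. Irf7 (2.93, edgeR adjusted p = 0.0190), Ifi27l2a (0.94, adjusted p = 0.00115) and Ifi213 (1.42, adjusted p = 0.0217) were among the genes called higher, and Cr2 was too (0.62, adjusted p = 0.0366). Slfn5, Oasl1 and Cmpk2 were not, at 0.62, 1.52 and 1.16 (adjusted p = 0.212, 0.259 and 0.295), and Rsad2 did not pass the filter on low counts. Ifi30 (-1.36), Egr3 (-1.42), Hvcn1 (-0.73), Chst3 (-0.89), Cxcr4 (-0.62), Malt1 (-0.60) and Unc93b1 (-0.75) were called lower. Cd69, an early activation antigen that was named after its values were seen, was called lower only here (-1.25, adjusted p = 0.0193), with 329 and 269 CPM on vehicle and 88.4 and 168 CPM on PM.

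In the transitional-like cluster, with 14 and 75 cells in the vehicle libraries, 5 of 4532 genes were called higher (0.11%) and none lower, where 136 and 102 genes were higher and lower at an unadjusted p under 0.05. The 5 were Cr2, Ifi27l2a, the class I gene H2-Q6, Sapcd1 and AF067061. Cr2 was at 101 and 78.6 CPM on vehicle and at 302 and 354 CPM on PM in these cells (1.97, edgeR adjusted p = 0.0220), and Ifi27l2a at 226 and 462 against 1087 and 869 CPM (1.31, adjusted p = 0.0478). All genes of this cluster were named after their values were seen.

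With each cell thinned to 1000 UMIs, interferon-list UMIs averaged 9.56 and 8.50 per cell in the vehicle libraries and 10.8 and 10.2 in the PM libraries. The medians were 9 and 8 on vehicle and 10 and 9 on PM, and the 90th percentiles 14 and 13 on vehicle and 18 and 17 on PM. The averages and 90th percentiles did not overlap between the groups, whereas the medians touched at 9. Thinning left out 1, 2, 11 and 8 cells of fewer UMIs. Immediate early UMIs averaged 10.3, 9.89, 6.99 and 9.05 per cell in vehicle 1, vehicle 2, PM 1 and PM 2, with PM 1 the lowest. For MHC class II the averages were 20.3, 17.4, 16.4 and 15.7.

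The PM effect was compared with that in developing B cells and T cells of the same mice, by the interaction of cell class and treatment with the library as a block. Developing B cells, which had no Ighd UMI and at least 1 of Rag1, Vpreb1 or Igll1, numbered 40, 220, 68 and 50 in vehicle 1, vehicle 2, PM 1 and PM 2. The effect differed for 279 of 8823 genes (3.16%), and for 22 of 6775 (0.325%) when cells over 5000 UMIs were left out of both classes. Leaving out 1 library gave 153, 424, 20 and 79 genes for vehicle 1, vehicle 2, PM 1 and PM 2. The developing B cells also held transcripts of other cells at levels that differed between libraries. In vehicle 1, vehicle 2, PM 1 and PM 2 they held Mpo at 20.9, 35.0, 1897 and 837 CPM, Elane, a protease gene of immature neutrophils, at 0, 5.65, 1309 and 321 CPM, and Jchain at 27.9, 1992, 28.5 and 26.5 CPM. Their Cd79a lay at 1479, 1625, 815 and 1158 CPM, and the part of these differences in the interaction was not tested. Ccnd2, the cyclin D2 gene, differed both with and without the cells over 5000 UMIs. In the members it had 288, 148, 195 and 195 CPM, and in developing B cells 141, 134, 584 and 722 CPM, a difference of log2 effects of -2.19 (edgeR adjusted p = 1.03e-11).

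T cells numbered 150, 146, 432 and 315 in the same order. The effect differed for 54 of 9812 genes (0.55%), and for 25 of 8839 (0.283%) without cells over 5000 UMIs. Without vehicle 1, vehicle 2 or PM 2 the first count was 93, 163 and 89. The 5 named genes, Hist1h2ap, Hist1h1b, Pclaf, Hist1h2ae and Rrm2, are all genes of DNA replication. Their PM effect was higher in the members than in T cells by 3.09 to 4.06 on the log2 scale. Only Hist1h2ap could be fitted without cells over 5000 UMIs, and there its difference was -0.63 (edgeR adjusted p = 0.928). Egr3, named after its values were seen, also differed (-3.10, edgeR adjusted p = 0.00707), with 106, 93.3, 37.5 and 33.2 CPM in the members and 13.5, 4.35, 19.4 and 35.3 CPM in T cells.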

How the data were processed

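Single-cell 3′ RNA libraries of bone marrow from 4 mice were made and processed by the authors. The deposited values were raw UMI counts per gene and cell for 32285 gene IDs, made by the authors with Cell Ranger and STAR per the labels and the study's methods. The methods name GRCm38 and the submitters' processing notes GRCm39, so gene coordinates printed here come from GENCODE on GRCm38 and promoters from RefSeq on GRCm38.p6, matched by name. The members, gene lists and tests were chosen with earlier results of these data known. From the counts, cells were filtered, gated and summed per library. Sums were tested with edgeR 4.0.16 (TMM scaling, filterByExpr, robust quasi-likelihood fit, R 4.3.3), gate genes being left out of the calls, with DESeq2 1.42.0 as an alternative. CPM of all members carry the TMM scaling, and those of markers, list sums and members of at most 5000 UMIs are plain counts per 1000000 of the members' total. Doublets were called against artificial doublets of each library and kept in the main comparison. Members were clustered with leidenalg 0.10.2 (1000 variable genes, 20 components, 15 neighbors, resolution 0.6). Shares were compared with an exact permutation test (scipy 1.17.1). The code was tested on simulated data, where a comparison without true differences also gave some calls and most smaller changes were missed. With 2 libraries a group the adjusted p-values may therefore be too small.

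Named genes were the 12 largest rises and 12 largest falls among called genes with at least 20 CPM, 4 of 4 vehicle-PM pairs in 1 direction and at least one in 5 of the CPM of other kept cells. Immunoglobulin, T cell receptor, mitochondrial, hemoglobin, gate and unnamed genes were left out of these. Added to them were the markers Fcer2a, Cr2 and Bank1, the genes Isg15, Ifi35, Tap1, Cxcl10, Ccl7, Myc, Bcl2, Ikzf1, Ikzf3, Irf4, Cdkn1a and H1f0, and the class I and IIb HDAC genes. Each list gave up to 4 called genes, or its 2 most abundant where none was called. The 4 most abundant calls below the one in 5 limit and the 5 interaction genes of smallest p were also named. Other genes given with a test are marked as chosen after their values were seen, and genes that lead a cluster or a marker list come from those lists. Some genes that this rule names are not reported here. Alternatives changed the test, scaling, filter, cell limits, gate, doublets and libraries, and limits on deep members and clusters were added after the data were seen.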

Additional observations from a re-analysis of the deposited data

Results flagged for a closer look

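For 10 genes the PM effect differed between the mature B cells and another cell class of the same mice by an edgeR interaction test. Against developing B cells, the log2 difference (members minus developing B cells) was -2.19 for Ccnd2 and -2.46 without cells over 5000 UMIs (adjusted p = 0.000149). For Cnp it was 1.67, for Malat1 1.05, for Btg2 1.51 and for Sox4 1.71. Without cells over 5000 UMIs these 4 were 0.65, 0.18, 0.56 and 0.75, with adjusted p of 0.659, 0.859, 0.580 and 0.336. Sox4, a transcription factor of early B cells, was at 1926, 1648, 442 and 751 CPM in developing B cells of vehicle 1, vehicle 2, PM 1 and PM 2. Against T cells, the log2 difference was 3.23 for Hist1h2ap, 4.06 for Hist1h1b, 3.20 for Pclaf, 3.57 for Hist1h2ae and 3.09 for Rrm2. Of these 5, Hist1h2ap alone could be fitted without cells over 5000 UMIs, at -0.63. The developing B cells of PM mice also held more Mpo (1897 and 837 CPM) than those of vehicle mice (20.9 and 35.0 CPM). The cause of these differences was not tested.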

How the results depend on the processing

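With 2 mice a group, the counts of calls moved with most settings. Against 99 genes called higher and 43 lower, DESeq2 gave 19 and 8, no filter on low counts 212 and 108, an Ighd limit of 4 UMIs 56 and 5, members without called doublets 64 and 34, members of at most 5000 UMIs 46 and 17, and the largest cluster alone 43 and 28. Leaving out 1 library gave 83 to 172 higher and 21 to 134 lower, and among members of at most 5000 UMIs 21 to 66 and 10 to 38. DESeq2 on those members gave 6 and 6. The replicate numbers of the labels gave 1 pair of deviations, with r = -0.062 over 6693 genes. With 2 libraries a group, this single correlation cannot show whether mice of the same number shared a batch. With the replicate block, 11 and 1 genes were called in all members and 57 and 28 in members of at most 5000 UMIs. Of 49 named genes called in all members, 49 were called again with DESeq2 size factors in edgeR, 42 with stricter limits on cells (500 genes, 10% mitochondrial UMIs), 15 with DESeq2, 4 with the replicate block and 21 of 44 fitted without the deep members.

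Birc5 turned to -0.15 and Pglyrp1 to -0.11 without vehicle 2 and without members over 5000 UMIs. Leaving out 1 library with all members kept gave 1.59 to 2.91 for Birc5 and 0.83 to 0.96 for Pglyrp1. No other named call changed sign under these settings. The PM effect against developing B cells differed for 20 to 424 genes when 1 library was left out and for 22 without cells over 5000 UMIs. Against T cells these numbers were 71 to 163 and 25, and 142 without the filter on low counts. The difference in share was 17.8 points of Cd79a-positive cells and 9.04 points of cells other than neutrophil-gated ones. Vehicle 1, with 115 members, limits the precision of low genes. The cause of these changes was not tested.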
